A study of Homo sapiens with 22 samples.

Results

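The 9 genes described here are candidate off-target genes of a guide RNA against HBB, the beta-globin gene, in HEK293 cells, a human embryonic kidney line with neural traits. They were chosen by their measured RNA levels: each was named for being much higher with the fusion VPRP and the HBB guide than with VPRP and a non-targeting guide, or for following the order of HBB over the fusions. EVPL (ENSG00000167880), PPL (ENSG00000118898), DMBT1 (ENSG00000187908), AEBP1 (ENSG00000106624), COL16A1 (ENSG00000084636), CEL (ENSG00000170835), MYO1A (ENSG00000166866), SV2A (ENSG00000159164) and NCAM2 (ENSG00000154654) all had a row among the 48162 gene IDs of the count table. All 9 passed the filter on low counts, as did 16694 genes in all. Those with few counts in WT, down to 1 or 2 counts over both libraries in DMBT1, AEBP1 and MYO1A, passed it through the groups in which they were high, so no share of candidates passing is used as support.

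RNA was sequenced from 6 groups of 2 libraries each, which the series calls biological replicates. VPRP sgHBB cells carried the HBB guide with VPRP, a catalytically dead Cas9 joined to the activation domains of VPR and to the acetyltransferase p300. The p300 sgHBB, p300 D1399Y sgHBB and VPR sgHBB cells carried the same guide with p300, with p300 bearing the D1399Y substitution that impairs its catalysis, or with VPR. VPRP non-target cells carried VPRP with a guide that has no target, and WT cells carried a guide without any fusion, so that WT can differ from the other groups in guide as well as in fusion; the labels do not say which guide WT held. The protocol gives dox for 48 hours before sorting for fluorescent markers of guide and, outside WT, fusion, while the WT libraries are labelled as untreated; the number of clones behind each line is not given in the sources used here. In RNA from bulk cells, a lower level in fewer cells and in all cells cannot be told apart.

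Dead Cas9 binds DNA that matches its guide beside a short NGG motif, and it tolerates mismatches away from that motif, so that a guide can bring a fused activator to sites other than its target. VPR recruits the transcription machinery, while p300 acetylates histones at enhancers and promoters. Lines of cells can also differ in transcripts for reasons unrelated to any guide. Binding was not measured here.

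The candidates come from unlike tissues. EVPL and PPL encode envoplakin and periplakin, partner proteins that link desmosomes and keratin filaments in the cornified envelope of skin. DMBT1 encodes a secreted scavenger receptor cysteine-rich glycoprotein of mucosal surfaces, AEBP1 a secreted carboxypeptidase-like protein that binds collagen, COL16A1 a chain of a fibril-associated collagen, and CEL the bile salt-dependent lipase of the pancreas. MYO1A encodes the class I myosin of the intestinal brush border, SV2A a glycoprotein of synaptic vesicles, and NCAM2 a neural cell adhesion molecule of the immunoglobulin superfamily.

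Promoter windows were available for 6 of the 9 candidates, DMBT1, MYO1A, COL16A1, SV2A, NCAM2 and CEL, in 7 windows among 35116 of the RefSeq annotation of GRCh38.p14. Each runs from 250 bases before a transcript start to 50 after it. The windows of SV2A and NCAM2, and 1 window of MYO1A, do not lie at the outer start of the gene. The windows of DMBT1 (chr10:122560504-122560803, plus strand), MYO1A (chr12:57051149-57051448, minus strand) and COL16A1 (chr1:31703968-31704267, minus strand) are shown because they lie at the outer start of the gene and belong to candidates with unlike levels over the groups described below. Capitals mark TATAAA and GGGCGG, the letters of a TATA box and a GC box, on either strand.
DMBT1: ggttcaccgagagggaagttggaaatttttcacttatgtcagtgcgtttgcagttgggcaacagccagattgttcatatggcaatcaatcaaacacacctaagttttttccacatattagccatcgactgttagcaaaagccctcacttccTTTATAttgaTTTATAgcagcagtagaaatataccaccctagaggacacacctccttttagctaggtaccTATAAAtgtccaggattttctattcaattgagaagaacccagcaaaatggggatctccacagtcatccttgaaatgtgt
MYO1A: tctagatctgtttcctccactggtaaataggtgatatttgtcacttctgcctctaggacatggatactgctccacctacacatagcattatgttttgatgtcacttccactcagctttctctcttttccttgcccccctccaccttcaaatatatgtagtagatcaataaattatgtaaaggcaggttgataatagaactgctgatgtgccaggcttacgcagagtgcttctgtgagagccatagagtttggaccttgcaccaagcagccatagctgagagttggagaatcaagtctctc
COL16A1: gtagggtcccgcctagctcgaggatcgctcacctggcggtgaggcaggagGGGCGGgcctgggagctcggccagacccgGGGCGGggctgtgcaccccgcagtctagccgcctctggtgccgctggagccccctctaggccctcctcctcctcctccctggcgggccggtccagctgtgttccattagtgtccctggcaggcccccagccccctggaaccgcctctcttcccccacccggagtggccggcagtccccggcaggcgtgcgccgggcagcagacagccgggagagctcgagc
The 3 windows differed in composition. G and C made up 40.7% of the DMBT1 window and 43.7% of the MYO1A window, against 73.7% in COL16A1, where the median of all windows was 58.7%. DMBT1 had 3 matches to TATAAA, a motif in 11.5% of all windows. COL16A1 had 2 matches to GGGCGG, a motif in 45% of all windows. CCAAT (34.6% of all windows) and TGANTCA (7.71%) were in none of the 7 windows of the candidates, on either strand. The sequence of the HBB guide was not used here, so the windows were not searched for it. As a description of what they share, the longest run of bases directly before an NGG was compared over the 15 pairs of candidates with a window: 7 pairs shared at least 6 bases, and the longest run, 8 bases in COL16A1 and CEL, was present in 0.609% of all windows. Shared runs of 6 bases were present in up to 3.74% of all windows each, and MYO1A entered with both of its windows. The share among pairs of other windows was not taken, so nothing is read from this count.

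The target gene separated the groups as labelled. HBB was at 1730 and 1380 CPM (counts scaled to library size with TMM factors) in VPRP sgHBB, 189 and 185 CPM in p300 sgHBB, 76.1 and 82.1 CPM in p300 D1399Y sgHBB and 65.8 and 95 CPM in VPR sgHBB, with 0 counts in VPRP non-target and WT, where 3 counts would be at most 0.202 CPM in a library. EP300 reads, which come from the gene and from fusions that hold p300, were at 351 and 398 CPM in VPRP sgHBB against 1170 and 1180 CPM in VPRP non-target, so the contrast that chose the candidates also differs in these reads. The groups fell on 2 sides in MAGEA10, a cancer-testis antigen gene. It was at 0 to 0.261 CPM in the 6 libraries of VPRP sgHBB, p300 sgHBB and p300 D1399Y sgHBB, against 24.9 and 27 CPM in VPR sgHBB, 32.1 and 32.0 CPM in VPRP non-target and 9.34 and 9.57 CPM in WT. TWIST2, a transcription factor gene, was at 2.93 to 4.43 CPM in those first 6 libraries and at 0 to 0.0607 CPM in the other 6. VPR sgHBB was therefore the group with an HBB guide that lay on the WT side of that division. Summed over 8 of 10 listed markers of HEK293 cells, the level was 368 to 393 CPM in VPRP sgHBB, p300 sgHBB and VPRP non-target. It was 491 to 581 CPM in p300 D1399Y sgHBB, VPR sgHBB and WT. Markers of epidermis, pancreatic acini and erythroid cells summed to at most 0.79, 0.486 and 1.16 CPM in any library. Intestinal markers summed to 26.7 to 44.9 CPM, lowest in VPRP sgHBB at 26.7 and 27.1 CPM, and leukocyte markers to 2.72 to 10.4 CPM. Total counts per library were 14894558 to 17479523.

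EVPL and PPL, the envelope pair, did not follow each other. EVPL was at 24.5 and 29.5 CPM in VPRP sgHBB, 4.16 and 3.42 CPM in p300 sgHBB, 27.3 and 25.8 CPM in p300 D1399Y sgHBB and 8.87 and 6.77 CPM in VPR sgHBB, against 0.425 and 0.887 CPM in VPRP non-target and 0.202 and 0.194 CPM in WT. Every sgHBB library was above every VPRP non-target and WT library, VPRP sgHBB overlapped p300 D1399Y sgHBB, and p300 sgHBB was the lowest of the 4 sgHBB groups. PPL was at 2.81 and 2.71 CPM in VPRP sgHBB, 1.47 and 1.41 CPM in p300 sgHBB, 4.80 and 5.19 CPM in p300 D1399Y sgHBB and 3.29 and 1.64 CPM in VPR sgHBB, against 3.10 and 2.38 CPM in VPRP non-target and 1.21 and 0.906 CPM in WT. The highest PPL group was p300 D1399Y sgHBB, the lowest WT, and VPRP sgHBB, VPRP non-target and VPR sgHBB overlapped one another. Over the 12 libraries the log2 levels of the pair had a Pearson r of 0.667.

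Of the secreted proteins, DMBT1 and AEBP1 were highest in VPRP sgHBB. DMBT1 was at 22.6 and 22.2 CPM in VPRP sgHBB, 0.551 and 0.766 CPM in p300 sgHBB, 4.45 and 3.11 CPM in p300 D1399Y sgHBB and 0.570 and 1.09 CPM in VPR sgHBB, against 0.607 and 0.222 CPM in VPRP non-target and 0 and 0.129 CPM in WT. Its p300 sgHBB and VPR sgHBB libraries overlapped, and VPRP non-target overlapped both. AEBP1 was at 12.3 and 13.2 CPM in VPRP sgHBB, 0.367 and 0.824 CPM in p300 sgHBB, 2.83 and 2.35 CPM in p300 D1399Y sgHBB and 0.760 and 0.479 CPM in VPR sgHBB, against 4.13 and 2.77 CPM in VPRP non-target and 0 and 0.129 CPM in WT. AEBP1 was thus second highest with the non-targeting guide, where it overlapped p300 D1399Y sgHBB and exceeded every p300 sgHBB and VPR sgHBB library.

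COL16A1 and CEL had every sgHBB library above every VPRP non-target and WT library, by very different margins. COL16A1 was at 17.8 and 20.4 CPM in VPRP sgHBB, 9.18 and 9.60 CPM in p300 sgHBB, 12.8 and 12.7 CPM in p300 D1399Y sgHBB and 4.24 and 3.28 CPM in VPR sgHBB, against 0.850 and 0.942 CPM in VPRP non-target and 0.269 and 0.323 CPM in WT. No 2 groups of COL16A1 overlapped. CEL was at 2.94 and 3.98 CPM in VPRP sgHBB, 2.26 and 1.94 CPM in p300 sgHBB, 6.88 and 6.29 CPM in p300 D1399Y sgHBB and 1.65 and 2.60 CPM in VPR sgHBB, against 1.46 and 1.55 CPM in VPRP non-target and 1.08 and 0.841 CPM in WT. The lowest sgHBB library for CEL, at 1.65 CPM, was close to the highest of VPRP non-target and WT at 1.55 CPM, and p300 sgHBB and VPR sgHBB overlapped. CELP, a pseudogene copy beside CEL, averaged 0 to 0.588 CPM over the groups, so reads shared between the copies make the CEL level uncertain. The RefSeq gene PEF1-AS1, which overlaps COL16A1, had 29 counts in the 12 libraries together; the strand setting of the counting is not given in the sources used here.

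MYO1A, the brush border myosin, was at 19.9 and 17.6 CPM in VPRP sgHBB, 1.29 and 1.83 CPM in p300 sgHBB, 2.02 and 1.45 CPM in p300 D1399Y sgHBB and 0.507 and 0.205 CPM in VPR sgHBB, against 0.425 and 0.609 CPM in VPRP non-target and 0.0672 and 0 CPM in WT. VPRP sgHBB was alone at the top, p300 sgHBB and p300 D1399Y sgHBB overlapped, and so did VPR sgHBB and VPRP non-target. A count of 0 in a WT library allows up to 0.202 CPM, which covers MYO1A, DMBT1 and AEBP1 there.

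Of the neural genes, SV2A was at 65.6 and 61.4 CPM in VPRP sgHBB, 29.7 and 31.5 CPM in p300 sgHBB, 47.0 and 40.9 CPM in p300 D1399Y sgHBB and 9.18 and 10.1 CPM in VPR sgHBB, against 3.71 and 2.44 CPM in VPRP non-target and 2.35 and 2.39 CPM in WT. Its groups were in the same order as those of COL16A1, and the lowest VPR sgHBB library was above the highest VPRP non-target and WT library. NCAM2 was at 7.31 and 8.07 CPM in VPRP sgHBB, 7.59 and 7.24 CPM in p300 sgHBB, 2.89 and 3.80 CPM in p300 D1399Y sgHBB and 0.0633 and 0.342 CPM in VPR sgHBB, against 0.243 and 0.665 CPM in VPRP non-target and 0.336 and 0.323 CPM in WT. NCAM2 in VPR sgHBB overlapped VPRP non-target and WT, and VPRP sgHBB overlapped p300 sgHBB.

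**Figure D1:**
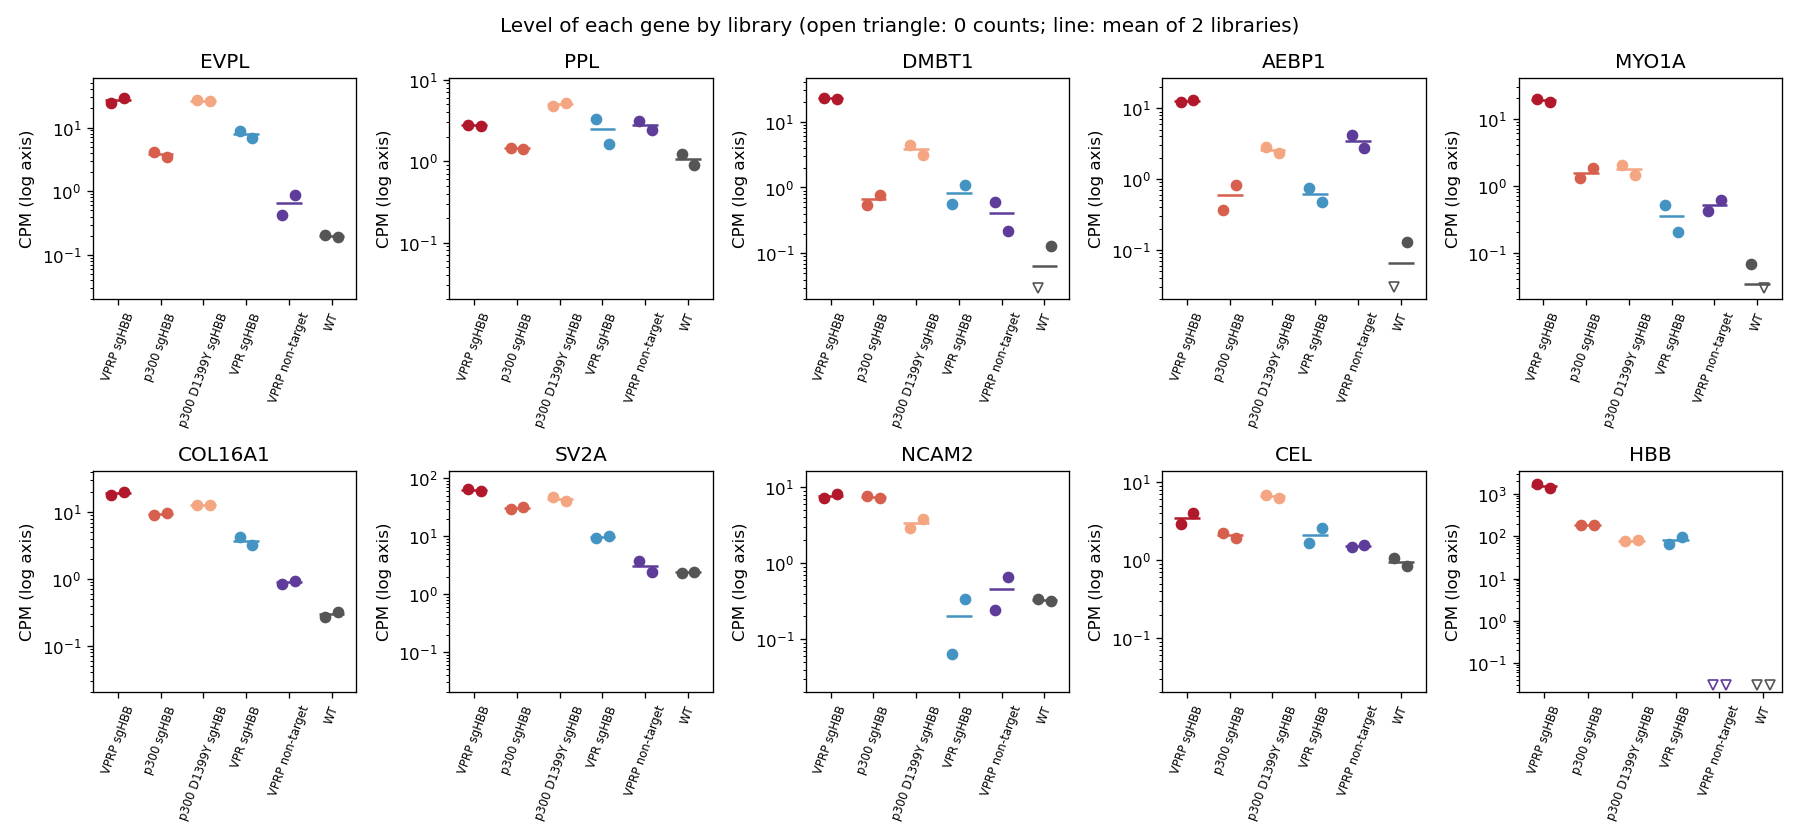
CPM on a log axis for the 9 candidates and HBB in each of the 12 libraries, by group; filled circles are libraries, open triangles are libraries with 0 counts drawn at the foot of the axis, and lines are means of 2 libraries. EVPL, COL16A1, SV2A and CEL have all 8 sgHBB libraries above the 4 of VPRP non-target and WT, while NCAM2 in VPR sgHBB lies at the WT level. The margin in CEL is narrow, with the lowest sgHBB library at 1.65 CPM and the highest of VPRP non-target and WT at 1.55 CPM.

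The values that chose the candidates were large for most of them but not for PPL. As ratios of mean CPM, VPRP sgHBB was above VPRP non-target by 54.0 in DMBT1, 41.2 in EVPL, 36.4 in MYO1A, 21.3 in COL16A1, 20.7 in SV2A, 16.9 in NCAM2, 3.71 in AEBP1, 2.31 in CEL and 1.01 in PPL. By the fitted fold among the 16694 genes, DMBT1 ranked 6, EVPL 9, MYO1A 10, COL16A1 13, SV2A 14 and NCAM2 16, while AEBP1 ranked 103, CEL 340 and PPL 7884. A 2-fold difference was reached by 8 of 9 candidates and by 3.13% of genes, which repeats the choice. Without VPRP non-target replicate 2 the log2 value was 5.98 in place of 5.33 for EVPL and 4.96 in place of 4.03 for NCAM2; without replicate 1 it was 6.63 in place of 5.76 for DMBT1. Only NCAM2 followed the HBB order, with VPRP sgHBB above p300 sgHBB and p300 sgHBB above both p300 D1399Y sgHBB and VPR sgHBB, and its 2 highest means differed by less than their spread. PPL met neither criterion. Relative to WT, all 9 were at least 2-fold higher in VPRP sgHBB, as were 16.9% of genes; those libraries also stood in the choice, so this too is a description.

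VPR sgHBB was then set against WT, where neither group is among those with MAGEA10 near 0. The choice did not use this contrast, but its order over the fusions used the VPR sgHBB, p300 sgHBB and p300 D1399Y sgHBB libraries. Only NCAM2 followed that order, and the values that named PPL are not known. In the quasi-likelihood test of edgeR, with p adjusted by Benjamini-Hochberg, 8 of the 8 candidates tested were called higher with VPR sgHBB, where 13.8% of the genes were called higher and 11.5% lower. Only SV2A, PPL and CEL had at least 10 counts in both WT libraries. EVPL, COL16A1, DMBT1, AEBP1 and MYO1A passed the count filter through groups in which they were high, so the number called is not read against that share, here or in the comparisons with p300 and p300 D1399Y. NCAM2 was not tested against WT in the sgHBB groups, since it was chosen by the order over them. EVPL averaged 7.82 ± 1.48 CPM against 0.198 ± 0.00536 CPM in WT (SD, n = 2 each), a log2 change of 5.26 (SE 0.364, adjusted p = 8.13e-13). COL16A1 averaged 3.76 ± 0.678 CPM against 0.296 ± 0.0386 CPM in WT, a log2 change of 3.64 (SE 0.366, adjusted p = 4.34e-09). SV2A averaged 9.62 ± 0.620 CPM against 2.37 ± 0.0289 CPM in WT, a log2 change of 2.01 (SE 0.191, adjusted p = 1.21e-09). These 3 calls passed under every alternative tried. That of DMBT1 passed in the 18 alternatives that tested it, and its low counts kept it out of the fit of the 2 groups alone. DMBT1 was tested only because of its level in other groups, VPRP sgHBB among them, so its call is a description.

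The remaining candidates changed less or rested on few WT counts. PPL rose by 1.23 on the log2 scale (SE 0.376, adjusted p = 0.0145) and CEL by 1.14 (SE 0.375, adjusted p = 0.0236). DMBT1 had a count ratio to WT of 12.5 (exact 95% interval 3.11 to 109, adjusted p = 0.00156), AEBP1 of 9.48 (2.29 to 83.9, adjusted p = 0.00763) and MYO1A of 11.0 (1.60 to 472, adjusted p = 0.0269); these intervals cover counting error only. These 3 genes passed the count filter through other groups, VPRP sgHBB among them, and were not in the fit of the 2 groups alone. As VPRP sgHBB served in the choice, the adjusted p-values of these genes are a description. In WT each of these 3 genes had counts in a single library. The ratios were therefore 6.36, 4.83 and at least 1.86 without WT replicate 1, and at least 4.08, at least 3.10 and 5.38 without WT replicate 2, the bounds resting on 3 counts in the library left. The PPL call ended without VPR replicate 1 (log2 0.63, adjusted p = 0.366) and without WT replicate 2 (0.13), over a range of 0.00295 to 0.366. For AEBP1 it ended without VPR replicate 1 (0.0543) and without WT replicate 1 (adjusted p = 0.103), over a range of 0.00226 to 0.103. For MYO1A it ended with DESeq2 (adjusted p = 0.0923), without VPR replicate 1 (0.235) and without WT replicate 2 (0.2), over a range of 0.0179 to 0.235. For CEL it ended when VPR replicate 2 was left out (adjusted p = 0.277), WT replicate 1 (0.0565) or WT replicate 2 (0.16), with DESeq2 (0.0591) and in a fit of the 2 groups alone (0.0628), over a range of 0.0101 to 0.277. NCAM2 averaged 0.203 ± 0.197 CPM in VPR sgHBB against 0.330 ± 0.00893 CPM in WT, a log2 value of -0.72 (SE 0.776), which was 0.05 without VPR replicate 1 and -2.25 without VPR replicate 2.

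With p300 and the HBB guide, 7 of the 8 candidates tested were higher than in WT, where 24.5% of genes were called higher and 21.6% lower. COL16A1 rose by 4.95 on the log2 scale (SE 0.309, adjusted p = 5.85e-15), EVPL by 4.21 (SE 0.418, adjusted p = 3.98e-10), SV2A by 3.68 (SE 0.163, adjusted p = 3.85e-19) and CEL by 1.13 (SE 0.370, adjusted p = 0.0122). The count ratio to WT was 47.3 in MYO1A (8.13 to 1910, adjusted p = 6.33e-07), 10.0 in DMBT1 (2.46 to 87.9, adjusted p = 0.00227) and 9.10 in AEBP1 (2.21 to 80.3, adjusted p = 0.00408). Without WT replicate 1 these ratios were at least 8.04, 5.10 and 4.64, and without WT replicate 2 they were 23.2, at least 3.27 and at least 2.98. PPL was at 1.44 ± 0.0392 CPM against 1.06 ± 0.215 CPM in WT and did not pass the test (log2 0.45, SE 0.404, adjusted p = 0.382). DMBT1 and AEBP1 passed the filter through other groups and were not in the fit of the 2 groups alone, so their adjusted p-values are a description. AEBP1 lost its call without p300 replicate 2 (adjusted p = 0.089) or WT replicate 1 (0.0682), over a range of 0.00117 to 0.089, and CEL without p300 replicate 1 (0.0768) or WT replicate 2 (0.0998), over a range of 0.00894 to 0.0998. NCAM2 was higher than in WT by 4.46 on the log2 scale (SE 0.394), given with no test.

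The candidates were also high with the D1399Y form of p300. With p300 D1399Y and the HBB guide, 8 of the 8 candidates tested rose relative to WT, where 15.7% of genes were called higher and 14.5% lower, and all 8 calls passed under each of the 19 alternatives. EVPL rose by 7.01 on the log2 scale (SE 0.298, adjusted p = 2.75e-19), COL16A1 by 5.39 (SE 0.296, adjusted p = 2.7e-16), SV2A by 4.21 (SE 0.158, adjusted p = 7.08e-21), CEL by 2.78 (SE 0.324, adjusted p = 2.96e-08) and PPL by 2.23 (SE 0.345, adjusted p = 4.66e-06). The count ratio to WT was 58.3 in DMBT1 (15.8 to 487, adjusted p = 1.31e-09), 53.5 in MYO1A (9.22 to 2150, adjusted p = 5.57e-07) and 39.6 in AEBP1 (10.6 to 333, adjusted p = 8.61e-08). Those ratios were 29.7, at least 9.09 and 20.2 without WT replicate 1, and at least 19, 26.2 and at least 13 without WT replicate 2. NCAM2 was higher by 3.30 (SE 0.439), with no test. As the values that named PPL are not known and this was its highest group, the adjusted p-value of PPL is a description.

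VPRP with the non-targeting guide was also set against WT. Its libraries stood in the contrast that chose the candidates, which favours low levels there, so these values are a description with no test. A 2-fold higher level was reached by 6 of the 9 candidates and by 18.3% of genes, and nothing is read from that share. AEBP1 had a count ratio to WT of 51.9 (14 to 433), MYO1A of 15.8 (2.50 to 659) and DMBT1 of 6.15 (1.41 to 55.8). Without WT replicate 1 the ratios were 26.4 in AEBP1, at least 2.69 in MYO1A and 3.14 in DMBT1, and without WT replicate 2 they were at least 17, 7.76 and at least 2.01. The log2 value was 1.71 in EVPL (SE 0.612, or 1.05 without VPRP non-target replicate 2), 1.57 in COL16A1 (SE 0.486) and 1.37 in PPL (SE 0.366). SV2A (0.36, SE 0.232), CEL (0.65, SE 0.389) and NCAM2 (0.48, SE 0.627, or -0.46 without VPRP non-target replicate 2) were within 2-fold of WT. All 4 comparisons share the WT libraries, so their values are not independent of one another.

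**Figure D2:**
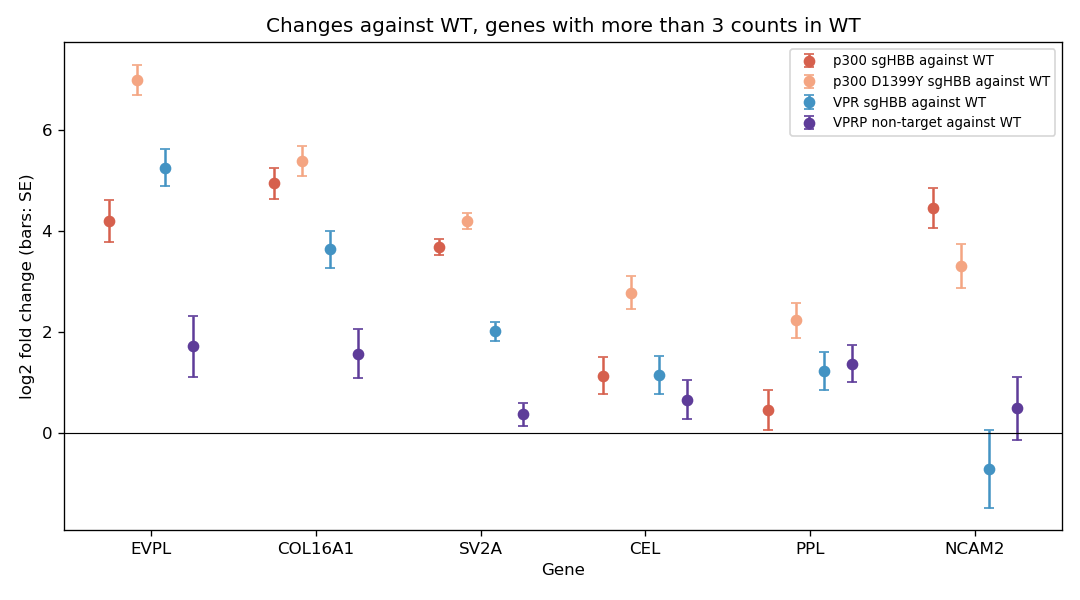
Log2 fold changes against WT of the 6 candidates with more than 3 counts in WT, with bars for the SE of the fit (n = 2 libraries a group). EVPL, COL16A1 and SV2A were highest with p300 D1399Y among these groups, and VPRP non-target was the lowest of the 4 in each of these 3 genes.

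Patterns named for the guide and for the cell population were read from the libraries themselves, as the absence of any overlap with at least a 2-fold difference in mean. A guide pattern, with the 8 sgHBB libraries above the 4 of VPRP non-target and WT, held for 4 of 9 candidates, EVPL, COL16A1, SV2A and CEL, and for 106 genes or 0.635% of those tested. Since the guide in WT is not stated, this pattern sets the labels sgHBB against the rest and cannot show that WT lacked the HBB guide. The mean of the sgHBB groups was 38.1 times that of the others in EVPL, 18.9 in COL16A1, 13.6 in SV2A and 2.90 in CEL. A population pattern, with VPRP sgHBB, p300 sgHBB and p300 D1399Y sgHBB above VPR sgHBB, VPRP non-target and WT, held for 4 candidates, MYO1A, COL16A1, SV2A and NCAM2, and for 0.827% of genes. Its name comes from the division seen in MAGEA10 and TWIST2. The groups on its high side are also those labelled sgHBB whose fusion holds p300 or its D1399Y form. Cell population cannot be told apart from guide with such a fusion here. The ratio of means was 24.3 in MYO1A, 18.7 in NCAM2, 9.17 in SV2A and 8.33 in COL16A1. COL16A1 and SV2A met both patterns, since VPR sgHBB lay between the groups on either side. VPRP sgHBB stood on the high side of both patterns and VPRP non-target on the low side, so the choice of the candidates favours them and nothing is read from these shares.

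The remaining 3 candidates met neither pattern. DMBT1 missed the guide pattern because its lowest sgHBB library, at 0.551 CPM, was under the highest of VPRP non-target and WT at 0.607 CPM, and it met the pattern without VPRP non-target replicate 1, which raised the number of candidates to 5. CEL joined the population pattern without VPR replicate 2, again raising it to 5. AEBP1 had its lowest sgHBB library at 0.367 CPM and its highest VPRP non-target library at 4.13 CPM, and its p300 sgHBB libraries also overlapped those of VPR sgHBB. PPL overlapped between VPRP sgHBB, VPR sgHBB and VPRP non-target, and so missed both patterns in several groups. A pattern with VPRP sgHBB alone at the top held for 5 candidates, DMBT1, AEBP1, MYO1A, COL16A1 and SV2A, and for 2.07% of genes; EVPL and NCAM2 joined without VPRP sgHBB replicate 1 and NCAM2 without p300 replicate 1. None of the 9 followed VPR with the guide (VPRP sgHBB and VPR sgHBB above the rest, 0.0599% of genes) or p300 activity (p300 sgHBB, VPRP sgHBB and VPRP non-target above the rest, 5.7% of genes). The choice favours high levels in VPRP sgHBB and low levels in VPRP non-target. It thus favours VPRP sgHBB alone at the top and works against the p300 activity pattern, so nothing is read from these shares either.

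**Figure D3:**
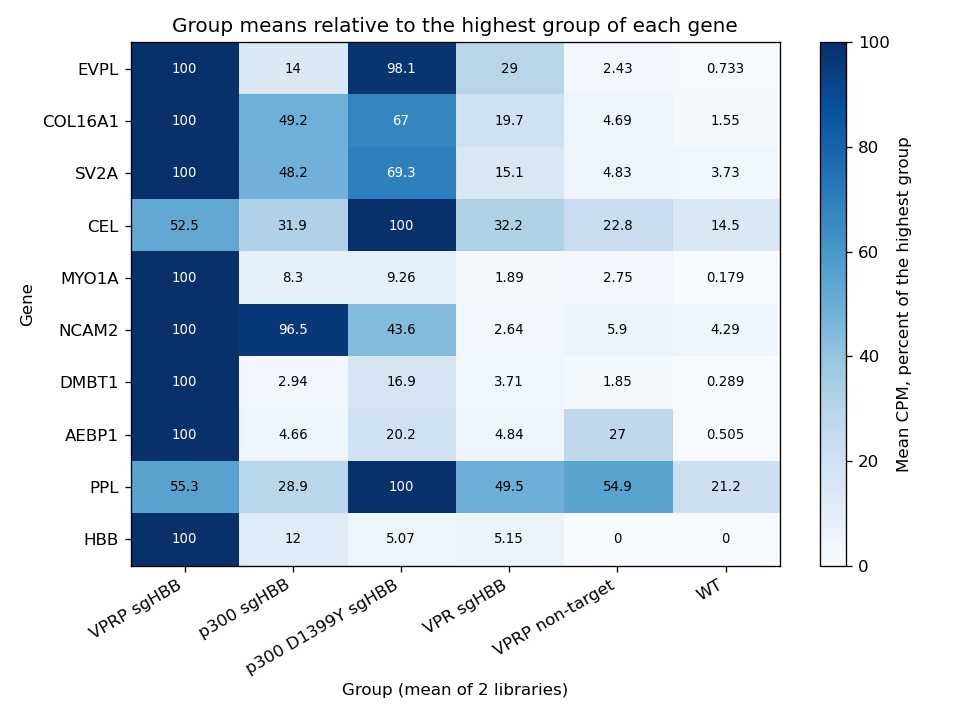
Mean CPM of each group as a percent of the gene's highest group, for the 9 candidates and HBB (2 libraries a group). EVPL in p300 D1399Y reached 98.1% of its VPRP sgHBB level, whereas HBB there reached 5.07%, and MYO1A, DMBT1 and AEBP1 were at 20.2% or less in p300 D1399Y.

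VPR sgHBB against VPRP non-target compares 2 groups with MAGEA10 present that differ in guide and fusion. EVPL was higher in VPR sgHBB by 3.54 on the log2 scale (SE 0.276, or 4.19 without VPRP non-target replicate 2), COL16A1 by 2.06 (SE 0.280) and SV2A by 1.65 (SE 0.177), with no overlap between the libraries. DMBT1 was higher by 1.01 (SE 0.531) with overlapping libraries, and by 1.87 without VPRP non-target replicate 1. The 4 were at least 2-fold higher, as were 4.24% of genes. AEBP1 was lower by -2.45 (SE 0.387), and NCAM2 by -1.20 (SE 0.703), against 15.7% of genes that were at least 2-fold lower; the NCAM2 value was -0.42 without VPR replicate 1, -2.71 without VPR replicate 2 and -0.28 without VPRP non-target replicate 2. The values for CEL (0.49, SE 0.338), PPL (-0.14, SE 0.318) and MYO1A (-0.52, SE 0.582, or -1.30 without VPR replicate 1) were within 2-fold. The VPRP non-target libraries served in the choice, so these values carry no test.

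Over the fusions with the HBB guide, 8 of the 9 candidates, all but NCAM2, did not follow the order of the target. In p300 D1399Y sgHBB relative to VPR sgHBB, HBB was level (log2 -0.02, SE 0.110), whereas 9 of 9 candidates were at least 2-fold higher, as were 4.35% of genes. Both groups stood in the order used for the choice, so nothing is read from that share. NCAM2 was higher by 4.02 (SE 0.487), MYO1A by 2.26 (SE 0.463), DMBT1 and SV2A by 2.20 (SE 0.349 and 0.125), AEBP1 by 2.05 (SE 0.406), EVPL and COL16A1 by 1.76 (SE 0.159 and 0.185), CEL by 1.64 (SE 0.285) and PPL by 1.00 (SE 0.301). Without VPR replicate 1 the value was 3.25 for NCAM2, 3.05 for MYO1A and 1.60 for PPL; without VPR replicate 2 it was 5.55 for NCAM2 and 0.60 for PPL. These groups lie on opposite sides of the MAGEA10 division, and the part of that division in the difference cannot be told apart from that of the fusion.

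Several candidates were lower with p300 than with its D1399Y form, both in groups with MAGEA10 near 0. In p300 sgHBB relative to p300 D1399Y sgHBB, HBB was 2.37-fold higher, while 5 of 9 candidates were at least 2-fold lower, as were 2.82% of genes. As these groups also stood in the order used for the choice, nothing is read from that share. EVPL differed by -2.81 (SE 0.175), DMBT1 by -2.52 (SE 0.357), AEBP1 by -2.10 (SE 0.400, or -2.80 without p300 replicate 2), PPL by -1.79 (SE 0.321) and CEL by -1.65 (SE 0.281), all with no overlap between libraries. SV2A (-0.53, SE 0.107) and COL16A1 (-0.44, SE 0.161) were lower by less, MYO1A overlapped (-0.17, SE 0.338), and NCAM2 was higher by 1.16 (SE 0.263), as were 7.76% of genes at 2-fold. EP300 reads were at 1120 and 1130 CPM in p300 sgHBB against 195 and 194 CPM in p300 D1399Y sgHBB, and their part in these values was not tested.

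VPRP sgHBB was at least 2-fold above VPR sgHBB in 7 of 9 candidates, where 13.5% of genes were, above p300 sgHBB in 6 (6.76%) and above p300 D1399Y sgHBB in 4 (12.6%). The choice favours high levels in VPRP sgHBB, so nothing is read from these shares. The 4 were DMBT1, higher than in p300 D1399Y sgHBB by 2.55 on the log2 scale (SE 0.224), AEBP1 by 2.29 (SE 0.266), MYO1A by 3.41 (SE 0.258) and NCAM2 by 1.21 (SE 0.262). EVPL was level between these groups (0.03, SE 0.139), and CEL (-0.92, SE 0.263) and PPL (-0.85, SE 0.293) were lower in VPRP sgHBB. Relative to VPR sgHBB, MYO1A was higher by 5.67 (SE 0.338, or 6.46 without VPR replicate 1) and NCAM2 by 5.23 (SE 0.430, or 4.46 and 6.76 without VPR replicate 1 and 2), against 4.28 (SE 0.114) in HBB. DMBT1 was 4.75 higher (SE 0.288), AEBP1 4.34 (SE 0.338), SV2A 2.72 (SE 0.122), COL16A1 2.34 (SE 0.178) and EVPL 1.78 (SE 0.158), while CEL (0.72, SE 0.302) and PPL (0.15, SE 0.319, or 0.74 without VPR replicate 1) were within 2-fold.

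The genes beside the candidates were read in the same 4 comparisons with WT, in which 31.2% of all genes were called higher and 28.5% lower with VPRP non-target. The RefSeq gene table gave 18 nearest neighbours, 1 on each side, of which 12 passed the count filter. The median log2 change of these neighbours from WT was 0.02 in p300 sgHBB, 0.04 in p300 D1399Y sgHBB, -0.06 in VPR sgHBB and -0.04 in VPRP non-target. With p300 D1399Y 3 of the 12 rose and 4 fell; the numbers were 1 and 2 with VPR, 2 and 3 with p300 and 3 and 5 with VPRP non-target. TAC3, a tachykinin gene next to MYO1A, had 0 counts in WT and averaged 3.78 CPM in VPRP sgHBB, 1.20 CPM in p300 sgHBB, 0.393 CPM in p300 D1399Y sgHBB, 0.171 CPM in VPR sgHBB and 2.33 CPM in VPRP non-target, so unlike MYO1A it was second highest with the non-targeting guide. ADGRB2, an adhesion receptor gene next to COL16A1, rose by 0.75 with p300 (SE 0.092, adjusted p = 3.57e-08) and by 0.64 with p300 D1399Y (SE 0.093, adjusted p = 1.45e-06) and did not pass with VPR (0.09, SE 0.095, adjusted p = 0.528). SEC14L5, next to PPL, rose with VPRP non-target by 2.63 (SE 0.449, adjusted p = 5.91e-06). HTRA1, a serine protease gene next to DMBT1, fell by 0.35 with p300 D1399Y (SE 0.104, adjusted p = 0.0105) and by 1.01 with VPRP non-target (SE 0.108, adjusted p = 7.41e-10).

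**Figure D4:**
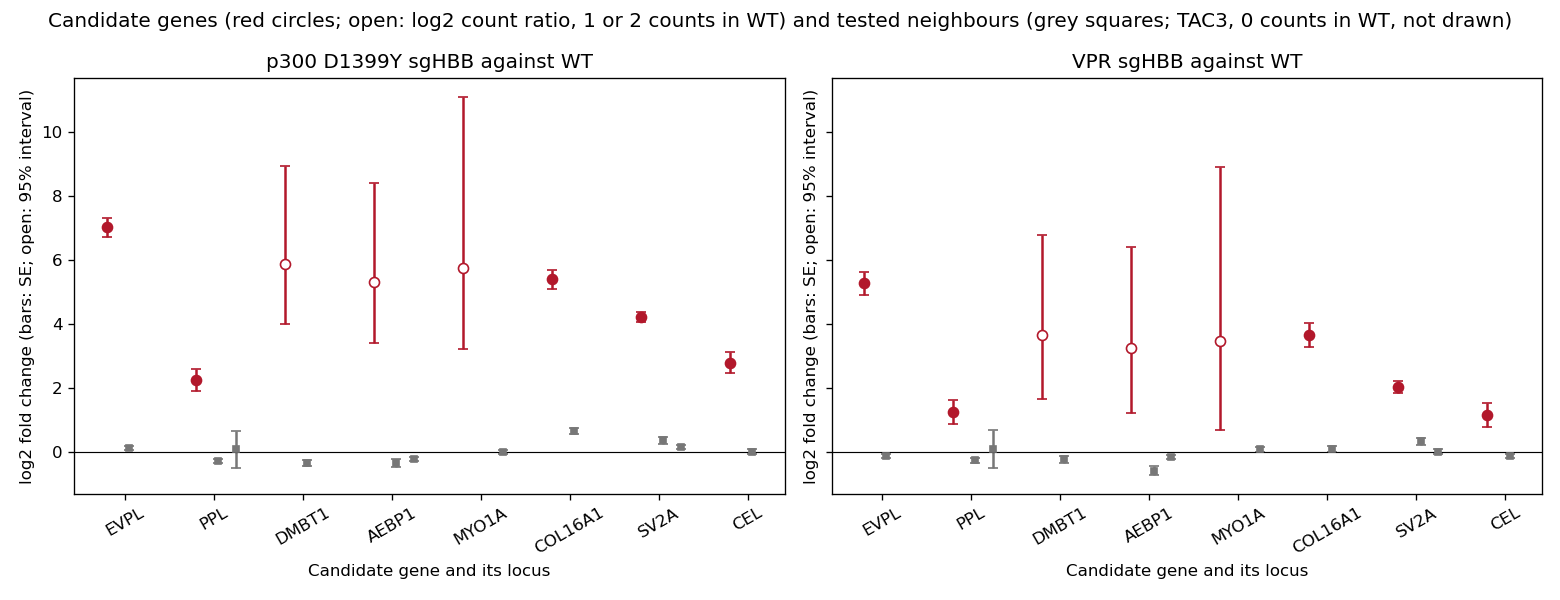
Log2 changes from WT of 8 candidates (red) and of their nearest tested neighbours (grey) with p300 D1399Y (left) and VPR (right); bars are the SE, and open circles show log2 count ratios with exact 95% intervals for the 3 candidates with 1 or 2 counts in WT. The drawn neighbours, which leave out TAC3, lie between -0.59 and 0.64, below every candidate in the same panel. TAC3, with 0 counts in WT, had fitted log2 values of 5.74 (SE 1.644) with p300 D1399Y and 4.48 (SE 1.982) with VPR. NCAM2, also not drawn, was at 3.3 with p300 D1399Y and -0.72 with VPR. The choice favoured high levels in the candidates and not in their neighbours, so nothing is read from this difference.

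The genes whose levels were most like a candidate over the 12 libraries were taken as the 3 with the highest Pearson r of log2 CPM. As the libraries share groups and the candidates were chosen on some of them, r is a description. COL16A1 and SV2A were each other's nearest gene (r = 0.98). EVPL was nearest to TMEM37 (r = 0.984), which averaged 50.2 CPM in VPRP sgHBB, 10.7 CPM in p300 sgHBB, 32.1 CPM in p300 D1399Y sgHBB and 21.7 CPM in VPR sgHBB, against 4.43 CPM in VPRP non-target and 2.44 CPM in WT, and then to MLLT11 (0.978) and UNC5B-AS1 (0.966). The next nearest to COL16A1 were SESN1 and APOL2 (0.973 each), and to SV2A EFHD1 (0.979) and CD164 (0.978). NCAM2 was nearest to CLCN3 (0.986), IFIT5 (0.982) and HBS1L (0.98), all lower in VPR sgHBB than in VPRP sgHBB. AEBP1 was nearest to JUP (0.976), the gene of the desmosomal protein plakoglobin, TSPAN10 (0.973) and LRRC8A (0.968). Among the genes most like MYO1A were PSAP (0.959) and CGN (0.957). As r leaves out the size of a change, like genes can differ much in it. PSAP averaged 666 CPM in VPRP sgHBB and 503 CPM in WT, where MYO1A averaged 18.8 and 0.0336 CPM. DMBT1 was nearest to TMEM115 (0.953), MEIS3 (0.948) and LOXL1 (0.946), CEL to TSPAN11 (0.946), TNFRSF10B (0.94) and BTG3 (0.939), and PPL to DSCAM-AS1 (0.926), SNRNP70 (0.907) and WBP2 (0.9). Of the 27 genes chosen by this rule, 17 were also named with a prior count of 0.5 in place of 2. Among those not named then were COL16A1 for SV2A, JUP and TSPAN10 for AEBP1, and PSAP and CGN for MYO1A. UNC5B-AS1, WBP2, TMEM115 and SESN1 were not named then either. Among the candidates, EVPL and COL16A1 (r = 0.94) and DMBT1 and MYO1A (r = 0.91) were also close, and NCAM2 and PPL were the least alike (r = 0.168).

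Relatives of the candidates were counted from lists by function. Of the plakins and cornified envelope genes other than EVPL and PPL, 6 of 20 with a row passed the count filter; none rose and 1 fell with VPR, 0 and 3 with p300, 0 and 2 with p300 D1399Y, and 1 rose and 3 fell with VPRP non-target. DSP, the gene of desmoplakin, fell in all 4, by 0.42 with VPR (SE 0.073, adjusted p = 4.72e-05), 0.87 with p300 (SE 0.073, adjusted p = 8.8e-12), 0.49 with the D1399Y form (SE 0.073, adjusted p = 2.38e-06) and 1.14 with VPRP non-target (SE 0.074, adjusted p = 3.98e-15). The list's medians were -0.25, -0.49, -0.16 and -0.19 in that order of groups, beside 0.02, 0.03, 0.00 and 0.04 over all genes, and the lists that follow keep this order. PLEC, another plakin gene, fell with p300 by 0.96 (SE 0.109, adjusted p = 7.27e-09) and with p300 D1399Y by 0.55 (SE 0.107, adjusted p = 0.000148), and rose with VPRP non-target by 0.59 (SE 0.105, adjusted p = 1.07e-05). Of the brush border genes and class I myosins, 14 of 18 were tested; 3 rose and 2 fell, 6 and 3, 4 and 2, and 9 and 2, with medians of 0.01, 0.55, 0.25 and 0.68. USH1C, a brush border scaffold gene, rose by 1.10 with VPR (SE 0.154, adjusted p = 2.39e-06) and by 2.87 with VPRP non-target (SE 0.133, adjusted p = 4.23e-19). It also rose by 2.87 with p300 (SE 0.133, adjusted p = 1.81e-18) and by 1.7 with p300 D1399Y (SE 0.145, adjusted p = 2.91e-11).

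SV2A, NCAM2 and COL16A1 have relatives among synaptic, adhesion and collagen genes. Of the synaptic vesicle genes, 9 of 13 were tested; 1 rose and 2 fell with VPR, 7 and 1 with p300, 3 and 1 with p300 D1399Y, and 6 and 2 with VPRP non-target, with medians of 0.10, 0.78, 0.20 and 1.21. SLC17A7, a vesicular glutamate transporter gene, had its largest change of the 4 with VPRP non-target, at 29.9 ± 0.795 CPM against 1.93 ± 1.17 CPM in WT (log2 3.96, SE 0.212, adjusted p = 1.95e-17). Of the immunoglobulin superfamily neural adhesion genes, 8 of 12 were tested, with 2 up and 2 down, 4 and 1, 1 and 3, and 4 and 2, and medians of -0.02, 0.29, -0.11 and 0.19. NFASC, the neurofascin gene, rose by 0.84 with VPR (SE 0.251, adjusted p = 0.012) and by 3.66 with p300 (SE 0.187, adjusted p = 2.86e-17). It also rose by 1.61 with p300 D1399Y (SE 0.226, adjusted p = 8.94e-07) and by 2.88 with VPRP non-target (SE 0.197, adjusted p = 1.47e-14). NRCAM of the same list fell, by 1.17 with VPRP non-target (SE 0.119, adjusted p = 2.06e-10). Of the collagens with interrupted helices, 7 of 9 were tested, with 2 up and 0 down, 2 and 1, 2 and 0, and 1 and 1, and medians of 0.82, 0.28, 0.92 and 0.66. COL9A2 rose with p300 D1399Y by 1.57 (SE 0.316, adjusted p = 0.000213) and COL21A1 with VPR by 2.14 (SE 0.640, adjusted p = 0.0126).

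Of the scavenger receptor cysteine-rich family, 6 of 14 were tested, with 1 up and 1 down with VPR, 2 and 1 with p300, 2 and 1 with p300 D1399Y and 0 and 3 with VPRP non-target, and medians of -0.27, -0.10, -0.03 and -0.23. LGALS3BP, the gene of a secreted galectin-binding glycoprotein, rose by 0.93 with VPR (SE 0.128, adjusted p = 1.69e-06), 1.39 with p300 (SE 0.123, adjusted p = 3.22e-11) and 2.14 with p300 D1399Y (SE 0.120, adjusted p = 4.55e-16), and did not pass with VPRP non-target (0.01, SE 0.136, adjusted p = 0.946). Of the M14 carboxypeptidases 3 of 7 were tested, with 1 up, 2 up, 1 up and 2 up, 1 down with VPRP non-target, and medians of 0.42, 0.57, 0.21 and 0.27. None of the 12 pancreatic acinar enzyme genes was tested, so CEL had no tested companion there. Of 10 erythroid genes 3 were tested, with 1, 2, 2 and 2 up and none down, and medians of 0.68, 0.53, 0.98 and 1.66; EPOR, the erythropoietin receptor gene, rose by 1.66 with VPRP non-target (SE 0.141, adjusted p = 2.94e-12) and by 0.68 with VPR (SE 0.151, adjusted p = 0.00105).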

How the data were processed

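Counts of 12 RNA libraries, 2 in each of 6 groups named by the titles, were analysed; 10 ChIP samples of the series were not analysed here. The deposited table holds raw read counts per gene, made by the authors. Per the submitters' processing notes, STAR 2.5, HTSeq 0.6.1, DESeq2 1.24.0, BWA, deepTools and hg19 were named, with no role or order; no source used here gives the annotation or strand setting. Each count column was assigned by its own name. The members and lists were chosen with earlier results of these data known.

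Counts were filtered with filterByExpr (minimum count 10, total 15), scaled by TMM and fitted in edgeR 4.0.16 (limma 3.58.1, R 4.3.3) as 1 mean per group over 12 libraries, with the quasi-likelihood test and Benjamini-Hochberg adjustment over 16694 genes at 0.05. Each SE was taken as the log2 change divided by the root of its quasi-F. Genes with 1 to 3 counts in WT are given as count ratios with exact 95% binomial intervals, which like the floor of 3 counts cover counting error only, since no molecular identifiers were used. Contrasts that chose the genes carry no test, nor do the members' values in VPRP non-target against WT, for which a test had been planned. With 2 libraries a group, p-values measure the spread between these libraries, pooled over groups. Named genes are all 9 members, check genes, the 3 most alike per member, the nearest RefSeq neighbours and up to 3 largest called changes per list. Not every comparison is given for the genes named from a list. Of the genes most like a member, 1 is not reported here. Symbols matched 33626 IDs. Promoter windows and neighbours came from RefSeq (GRCh38.p14), which differs from the build of the counts, so no coordinate was joined to a count. Replicate libraries differed by 2.86 to 13.7 times the Poisson variance where the mean count reached 50. The alternatives tried included upper-quartile or RLE factors, DESeq2 1.42.0, no filter, at least 1 CPM in 2 libraries, the 2 groups alone, a replicate block, no 2-fold limit on patterns and each library left out. The fit was tested on simulated data. Figures used matplotlib 3.10.9.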

Additional observations from a re-analysis of the deposited data

How the results depend on the processing

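The replicate numbers of the titles did not pair the libraries: deviations of same-numbered libraries from their group means correlated at -0.0413 to 0.0661 over the pairs of groups. With the replicate block as a term, 2175 genes were higher and 1831 lower in VPR sgHBB than in WT, beside 2307 and 1913 without it, and no candidate lost or gained a call.

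Leaving out 1 library moved the VPR sgHBB against WT counts most, to 1358 (without WT replicate 2) to 2349 genes higher and 1190 (likewise) to 2244 lower. Without the 2-fold limit, patterns held for 500 genes (guide, 106 with it), 510 (population, 138), 53 (VPR with guide, 10), 1692 (p300 activity, 952) and 1064 (VPRP sgHBB alone, 345), with the same number of candidates in each. Leaving out 1 library gave 8 to 18 genes for VPR with guide and 343 to 548 for VPRP sgHBB alone. Of the count results under alternatives, 289 stayed within 1.5 times and 13 did not; of the candidates' values, 16 lost a call, none gained one, 74 with no test moved by more than their SE and no called value reversed. Low counts limit the values in WT, where MYO1A had 1 count over both libraries, DMBT1 and AEBP1 2, EVPL 6, COL16A1 9 and NCAM2 10, and that of NCAM2 in VPR sgHBB, with 6.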
